A study of Mus musculus with 6 samples.

Results

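The 33 genes described here encode enzymes of sterol and fatty acid synthesis, together with the proteins that regulate these pathways. They were chosen by name, as the rows of the deposited expression table that carry one of 33 listed gene symbols, out of 54532 genes in all. The measurements came from 6 mouse libraries labelled as bone marrow-derived macrophages (BMDMs) after co-culture with ID8, a mouse ovarian cancer cell line derived from ovarian surface epithelium. The ID8 cells of 3 libraries had first been exposed to cisplatin (40 µM), which forms platinum adducts and crosslinks on DNA, and those of the other 3 to phosphate-buffered saline (PBS). The study's methods describe the marrow cells as monocytes from C57BL/6 mice aged 6–8 weeks, and name no growth factor in their culture. Both groups contained ID8 cells, so neither shows macrophages on their own. The comparison is between mixed co-cultures whose ID8 cells had met cisplatin or PBS. Which cells a difference came from was not tested.

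Cholesterol and fatty acids are both built from acetyl-CoA in the cytosol. The sterol branch joins acetyl-CoA units into mevalonate and isoprenoids, condenses these into squalene, and then closes and trims the ring system to give cholesterol. The fatty acid branch makes palmitate with NADPH as the reductant, after which elongases and desaturases set chain length and the number of double bonds. SREBP transcription factors drive many of these genes. SCAP escorts SREBPs out of the endoplasmic reticulum when sterols are low, and INSIG proteins hold them back when sterols are abundant. Macrophages take up large amounts of lipid from dying cells and adjust these genes during inflammatory activation.

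The reads recovered from the deposited values numbered from 15776238 to 17924686 per library. The library totals behind the deposited values were 103.7% to 104.1% of those reads with cisplatin and 97.4% to 98.7% with PBS, so the scaling differed slightly by group. The median-of-ratios factor of the deposited values was the same in all 6 libraries (1.009), so rescaling by it tests nothing, while voom on the reads moved the median log2 fold change of all tested genes to 0.085. Levels are given as FPKM (fragments scaled to gene length in kilobases and to a library total), and fold changes as the log2 difference of FPKM + 1, cisplatin minus PBS. All 33 genes passed the filter on low values (at least 1 FPKM in at least 3 libraries), although Fdps and Tm7sf2 passed through the cisplatin group, each with only 1 PBS library above that level. Genes called upregulated or downregulated had an adjusted p under 0.05 in limma, Benjamini-Hochberg corrected over 13441 genes, and changed by 1 or more on the log2 scale. "Higher" and "lower" refer to the adjusted p alone. Macrophage markers were present in every library, and so were keratins and other transcripts of ID8 cells, which are described with the summed levels.

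In the deposited values, most genes of cholesterol synthesis were higher in BMDM co-cultures with cisplatin-pretreated ID8 cells, a direction that turned for most of them when libraries were scaled to Y-linked genes or macrophage markers. Desaturases and the NADPH-producing malic enzyme were lower as deposited. They stayed so under those scalings, which move fold changes downward and so could not turn a fall. Of the 33 genes, 4 were upregulated (Idi1, Hsd17b7, Fasn and Insig1) and 4 were downregulated (Me1, Fads1, Scd2 and Scd1). Over all tested genes 15.9% were called, 4.67% upward and 11.3% downward. At the adjusted p alone, which 68% of all tested genes passed, 23 of the 33 genes were higher and 8 were lower, against 32.9% higher and 35.1% lower over all tested genes. Leaving out Fdps, whose place among the tested genes depended on its cisplatin values, 22 of 32 genes were higher. The libraries of the 2 groups did not overlap in 31 of the 33 genes, 23 upward and 8 downward, and in 30 of 32 without Fdps, 22 of them upward. Such separation was seen in 72.4% of all tested genes, 35.2% upward and 37.2% downward. The median log2 fold change was 0.35 over the 33 genes (0.33 without Fdps), 0.50 over the 18 genes of the sterol branch (0.47 without Fdps) and -0.76 over the 10 genes of the fatty acid branch, against -0.0011 over all tested genes. The direction of the rises depended on how the libraries were scaled to each other, and 2 scalings to marker genes, given further on, turned the sterol median negative.

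**Figure D1:**
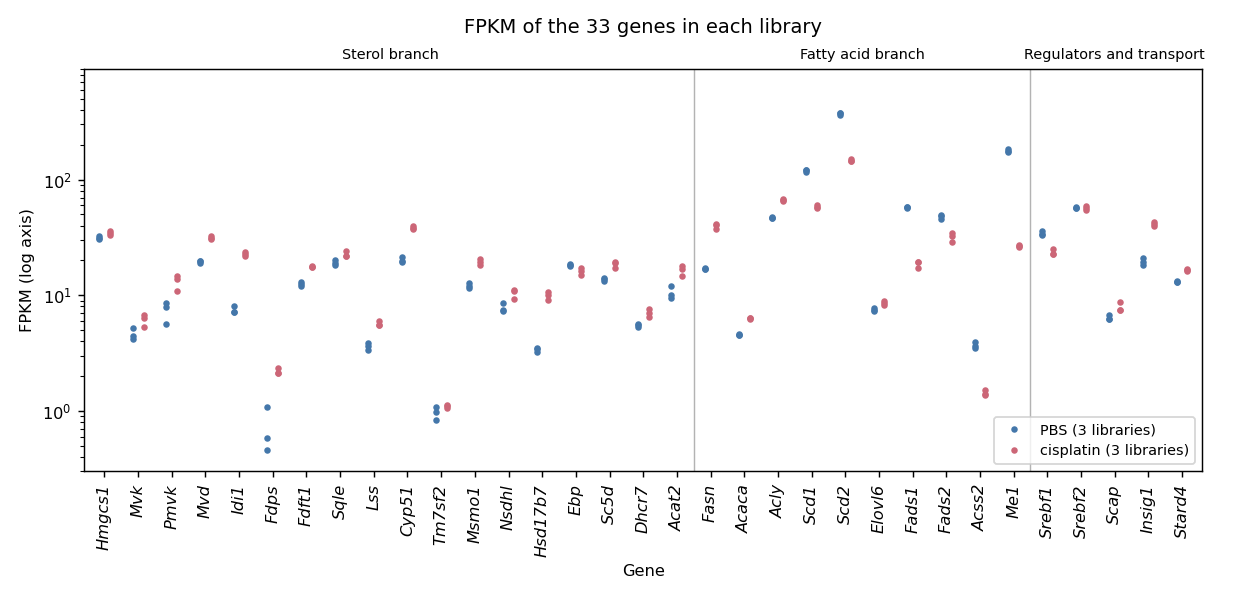
FPKM of each of the 33 genes (log axis) in the 3 PBS libraries and the 3 cisplatin libraries, 1 point per library, grouped by role. Scd2 had the highest level in both groups, and in 31 of the 33 genes the 2 groups do not overlap.

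The early steps of the sterol branch, from acetyl-CoA to farnesyl diphosphate, were covered by 7 genes. Leaving out Fdps, whose passing of the filter rested on its cisplatin values, all 6 others were higher with cisplatin at the adjusted p as deposited, against 32.9% of all tested genes, and 1 was upregulated. Their median log2 fold change was 0.64 (0.67 with Fdps), and all but Idi1 turned negative under both marker scalings. Idi1, the isomerase that makes the second isoprenoid building block (ENSMUSG00000058258, GRCm38, chromosome 13, 8885501 to 8892451), measured 7.17, 8.005 and 7.10 FPKM in the PBS libraries and 23.7, 22.5 and 21.8 FPKM in the cisplatin libraries. Every cisplatin library was thus far above every PBS library. Idi1 averaged 7.43 ± 0.50 FPKM with PBS and 22.7 ± 0.98 FPKM with cisplatin (SD over 3 libraries each). The log2 fold change was 1.49 (SE 0.058, limma adjusted p = 1.19e-06). Idi1 remained positive under both marker scalings, at 0.57 and 0.45.

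Hmgcs1, the HMG-CoA synthase, had the highest mean level of the early steps (31.5 ± 0.84 FPKM with PBS and 34.7 ± 1.26 FPKM with cisplatin, SD, n = 3 each). Its log2 fold change of 0.13 (SE 0.041, limma adjusted p = 0.0236) was the smallest among these 7 genes. The adjusted p of Hmgcs1 was above 0.05 with the replicate number as a block (0.0503) and without cisplatin replicate 1 or 3 or PBS replicate 2 or 3 (0.0503 to 0.0856), which ended its place among the higher genes. Acat2, the thiolase that joins acetyl-CoA units, had a log2 fold change of 0.61, the mevalonate kinase gene Mvk 0.35 (limma adjusted p = 0.0195), the phosphomevalonate kinase gene Pmvk 0.76 and the decarboxylase gene Mvd 0.67. For Mvk the adjusted p was 0.052 with no filter on low values, and 0.057 to 0.064 without cisplatin replicate 2 or 3 or PBS replicate 1 or 2. Acat2 has a close relative in Acat3, which was below 1 FPKM in every library.

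Fdps, the farnesyl diphosphate synthase, was listed at 1.07, 0.58 and 0.46 FPKM with PBS and at 2.11, 2.33 and 2.14 FPKM with cisplatin. These levels rested on 30 to 161 reads per library. Its log2 fold change was 0.92, short of the threshold, and the ratio of means without a pseudocount was 3.11. No p is given, because the filter let it through on its cisplatin values. The log2 fold change was past the threshold with a pseudocount of 0.1 (1.58), with TPM rescaling (1.35), with quantile normalisation (1.10), with voom on the reads (1.78) and without PBS replicate 1 (1.07). A pseudogene of Fdps is annotated in the table, and short non-coding genes overlap Fdps on the same strand. The highest of these averaged 3.91 FPKM over all libraries, above the 1.45 FPKM of Fdps. The reads of Fdps are thus less certain than those of its neighbours in the pathway.

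Of the 11 genes from squalene to cholesterol, 9 were higher and 1 was lower at the adjusted p as deposited, against 32.9% and 35.1% of all tested genes, with a median log2 fold change of 0.40. Of the 9, all but Hsd17b7 turned negative under both marker scalings. Hsd17b7 encodes the ketosteroid reductase that acts while methyl groups are removed from the sterol ring (ENSMUSG00000026675, chromosome 1, 169949535 to 169969241). It measured 3.51, 3.26 and 3.42 FPKM with PBS and 10.7, 10.1 and 9.13 FPKM with cisplatin. No cisplatin library came near the PBS range. The change was 2.94-fold (log2 fold change 1.32, SE 0.067, limma adjusted p = 4.11e-06), and it stayed positive under both marker scalings, at 0.47 and 0.37.

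Cyp51, the lanosterol demethylase (ENSMUSG00000001467, chromosome 5, 4081145 to 4104746), had the highest cisplatin level of the branch. It measured 19.8, 21.2 and 19.5 FPKM with PBS and 39.7, 37.3 and 38.3 FPKM with cisplatin, a log2 fold change of 0.90 (SE 0.046, limma adjusted p = 4.40e-06). It lay just short of the fold change threshold, and passed it at 1.02 when limma voom was applied to the recovered reads, but was at -0.066 and -0.18 under Y-linked and macrophage scaling. It partly overlaps Akap9, which is read from the opposite strand.

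The methylsterol monooxygenase gene Msmo1 had a log2 fold change of 0.62, the lanosterol synthase gene Lss 0.53 and the squalene synthase gene Fdft1 0.47. Sc5d and Nsdhl, which encode a sterol desaturase and a sterol dehydrogenase, came to 0.40 and 0.39, and Dhcr7, the reductase of a final step, to 0.30. Fdft1 overlaps Ctsb, an abundant cathepsin gene at a mean of 348 FPKM on the opposite strand, and no strand setting is given for the counting. Sqle, the squalene epoxidase and a control point of the pathway, changed by 0.22 (SE 0.057, limma adjusted p = 0.0122), from 19.2 ± 0.87 to 22.5 ± 1.42 FPKM (SD, n = 3 each).

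Ebp, a sterol isomerase gene on the X chromosome, measured 18.4, 18.6 and 17.98 FPKM with PBS and 17.3, 16.1 and 14.9 FPKM with cisplatin (log2 fold change -0.18, SE 0.057, limma adjusted p = 0.0298). The difference was small and the groups did not overlap, but the adjusted p was above 0.05 with no filter (0.060), with quantile normalisation (0.084), with voom (0.233) and in 5 of the 6 fits without 1 library (0.055 to 0.081, all but the fit without cisplatin replicate 1). Under Y-linked and macrophage scaling Ebp was at -1.12 and -1.23 and was called downregulated. Tm7sf2, a sterol reductase gene, was near the detection filter, at 0.97 ± 0.13 FPKM with PBS and 1.10 ± 0.036 FPKM with cisplatin (SD, n = 3 each). The groups overlapped, no p is given for the same reason as for Fdps, and the span listed for it also covers Vps51.

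**Figure D2:**
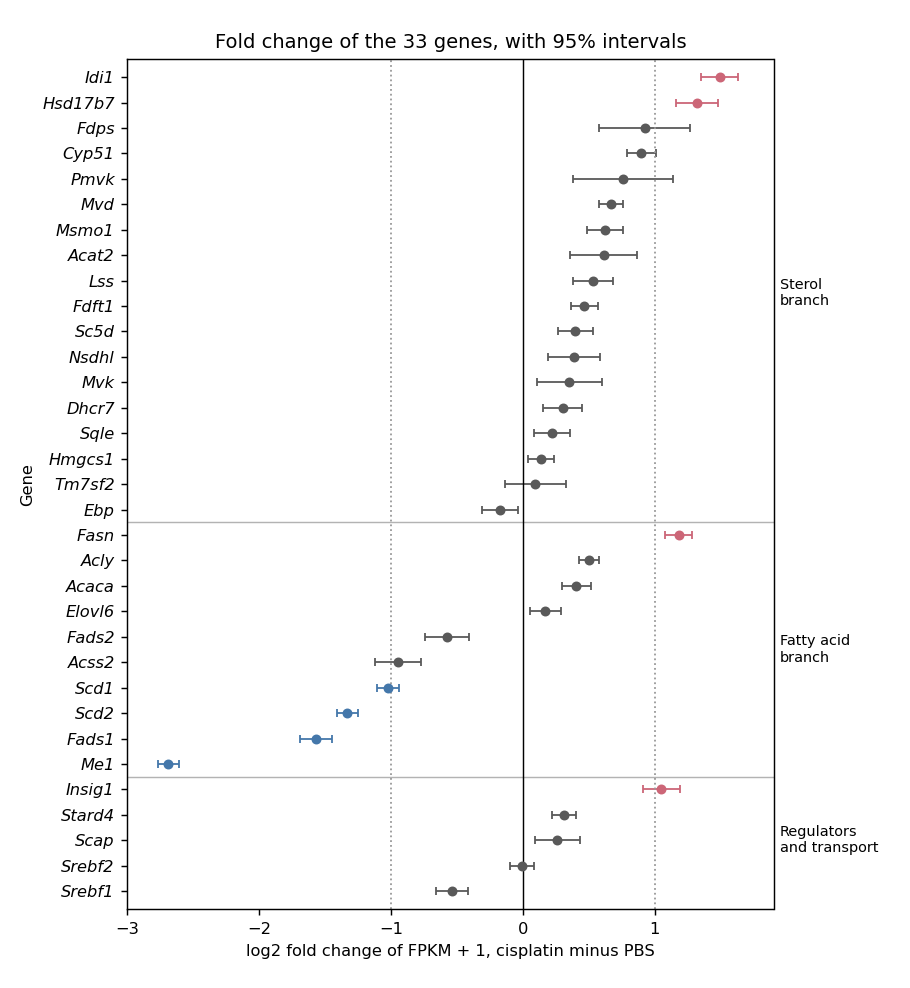
Log2 fold change (FPKM + 1, cisplatin minus PBS) of the 33 genes with 95% limma intervals, sorted within role. Dotted lines mark a log2 fold change of 1 in either direction, red points are the 4 upregulated and blue points the 4 downregulated genes. In the sterol branch 17 of 18 genes lie above 0, but only 3 do when libraries are scaled to Y-linked genes or to macrophage markers. Without Fdps and Tm7sf2, which passed the filter through the cisplatin group, these counts are 15 and 2 of 16.

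The regulators did not move together. Insig1, which retains SCAP and SREBPs in the endoplasmic reticulum and is itself an SREBP target (ENSMUSG00000045294, chromosome 5, 28071363 to 28078662), measured 21.01, 19.4 and 18.1 FPKM with PBS. With cisplatin it measured 40.0, 42.6 and 41.3 FPKM. The lowest cisplatin library was thus well above the highest PBS library. The log2 fold change was 1.05 (SE 0.059, limma adjusted p = 6.52e-06), and without PBS replicate 3 it was 0.997, which ended the call, as did a limma test against the fold threshold itself. Scaled to Y-linked genes it was 0.084 and scaled to macrophage markers -0.035.

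SREBP-2 is the factor tied most closely to sterol synthesis. Its gene, Srebf2, measured 57.0, 56.7 and 57.9 FPKM with PBS and 54.4, 58.6 and 57.4 FPKM with cisplatin, and the groups overlapped. The log2 fold change was -0.010, with a 95% interval from -0.10 to 0.08 (limma adjusted p = 0.828). Under Y-linked and macrophage scaling it was -0.99 and -1.11, the latter called downregulated. Srebf1, which encodes the SREBP-1 isoforms tied to fatty acid synthesis, was lower, at 35.6, 33.5 and 34.0 FPKM with PBS against 22.5, 24.9 and 22.7 FPKM with cisplatin. Its log2 fold change was -0.54 (SE 0.050, limma adjusted p = 7.77e-05), and -1.50 and -1.62 under the marker scalings, both called. Srebf1 partly overlaps Rai1 on the opposite strand.

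Within each library the ratio of Srebf1 to Srebf2 does not depend on how libraries are scaled. It was 0.60 ± 0.020 with PBS and 0.41 ± 0.015 with cisplatin (SD, n = 3 each, log2 difference -0.55, exact two-sided permutation test, p = 0.1, the smallest that 3 libraries against 3 can give). Scap, the escort of SREBPs, had a log2 fold change of 0.26 (SE 0.071, limma adjusted p = 0.0142), and Stard4, which encodes a sterol transfer protein, one of 0.31 (SE 0.037, limma adjusted p = 0.000279). Both turned negative under the marker scalings, Scap to -0.61 and -0.72 and Stard4 to -0.62 and -0.74.

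For 26 of the 33 genes a RefSeq promoter on GRCm38.p6 was at hand, covering 250 bases before to 50 after the start. Fdps, Fdft1, Sqle, Scd1, Scd2, Fads1 and Stard4 had none. Each promoter was searched on both strands for 6 motifs. The NF-Y box CCAAT, bound by a factor that works beside SREBPs, was found in 21 of the 26 genes (80.8%), against 42.6% of 9340 tested genes with a promoter. The E-box CACGTG was found in 5 (19.2%, against 11.8%). The sterol regulatory element, searched as TCACNCCAC, was found in Hmgcs1 alone (3.85%, against 1.40%). The antioxidant response core TGACNNNGC was found in 6 (23.1%, against 17.3%), the GC box GGGCGG in 22 (84.6%, against 68.4%), and the LXR direct repeat (DR4) in 0 of the 26 and 0 of the 9340. These are matches of letters and not measured sites.

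The segments below are those of 3 upregulated genes and of Hmgcs1, the only one of the 26 with the sterol regulatory element, trimmed to bases outside annotated exons. Idi1 is not shown because its promoter window lies within annotated exons. Capitals mark the NF-Y box (CCAAT or its complement ATTGG), the E-box and the sterol regulatory element. In the Fasn segment a pair of NF-Y boxes on opposite strands overlap.
Hmgcs1 (chr13:119690101-119690350, + strand): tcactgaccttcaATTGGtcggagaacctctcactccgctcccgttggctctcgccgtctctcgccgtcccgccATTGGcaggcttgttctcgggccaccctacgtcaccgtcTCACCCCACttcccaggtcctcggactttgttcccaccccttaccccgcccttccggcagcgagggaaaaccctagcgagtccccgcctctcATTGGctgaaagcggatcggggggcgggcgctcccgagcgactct
Hsd17b7 (chr1:169969242-169969408, - strand): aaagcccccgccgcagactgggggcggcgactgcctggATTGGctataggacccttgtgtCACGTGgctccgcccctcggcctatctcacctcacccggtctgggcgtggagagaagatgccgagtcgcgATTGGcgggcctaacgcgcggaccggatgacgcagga
Insig1 (chr5:28071162-28071362, + strand): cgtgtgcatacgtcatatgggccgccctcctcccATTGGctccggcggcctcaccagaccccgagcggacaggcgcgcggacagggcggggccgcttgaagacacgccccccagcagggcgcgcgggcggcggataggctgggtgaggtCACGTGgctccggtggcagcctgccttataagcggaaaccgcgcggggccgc
Fasn (chr11:120824548-120824797, - strand): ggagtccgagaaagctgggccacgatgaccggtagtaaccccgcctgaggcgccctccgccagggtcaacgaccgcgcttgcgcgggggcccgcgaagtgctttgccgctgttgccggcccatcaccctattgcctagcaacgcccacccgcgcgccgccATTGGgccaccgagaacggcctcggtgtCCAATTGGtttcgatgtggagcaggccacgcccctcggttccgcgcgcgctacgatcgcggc

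Hsd17b7 and Insig1, both upregulated, carry an E-box and at least 1 NF-Y box in these segments. Idi1 and Fasn, also upregulated, have NF-Y boxes and no E-box. Hmgcs1, with the sterol regulatory element, was among the members that changed least. Of the 19 genes higher at the adjusted p that had a promoter, 15 held an NF-Y box, and so did 4 of the 5 that were lower. The E-box was found in 5 of those 19 genes and in 0 of those 5, and the antioxidant response core in 4 of those 19 (Mvk, Pmvk, Hsd17b7 and Dhcr7) and 2 of those 5 (Acss2 and Me1).

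All 10 genes of the fatty acid branch passed the adjusted p as deposited, as did 68% of all tested genes, with 4 higher and 6 lower. The 3 genes that build and extend the saturated chain were higher as deposited. Of these, Acaca (-0.44 and -0.54) and Elovl6 (-0.72 and -0.83) turned negative under the marker scalings. The 4 desaturase genes were lower as deposited and under the marker scalings, which move fold changes downward and so could not turn a fall. Fasn, the fatty acid synthase (ENSMUSG00000025153, chromosome 11, 120805846 to 120824547), measured 16.9, 16.8 and 17.2 FPKM with PBS and 37.8, 40.4 and 41.0 FPKM with cisplatin. The groups were far apart, and the SD of the PBS libraries was 0.20 FPKM. Fasn was 2.34-fold higher (log2 fold change 1.18, SE 0.042, limma adjusted p = 7.74e-07), with 0.22 and 0.10 under the marker scalings. Acaca, the acetyl-CoA carboxylase that supplies malonyl-CoA, averaged 4.56 ± 0.052 FPKM with PBS and 6.37 ± 0.062 FPKM with cisplatin (SD over 3 libraries each), a log2 fold change of 0.41. Elovl6, which extends palmitate, had a log2 fold change of 0.17 (SE 0.049, limma adjusted p = 0.0190). Its adjusted p was 0.054 with the replicate number as a block, and 0.0502 to 0.062 without cisplatin replicate 1 or 2 or PBS replicate 1 or 3, which left 2 of the 3 chain-building genes higher.

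The enzymes that supply acetyl-CoA and NADPH differed from each other. Acly, which makes cytosolic acetyl-CoA from citrate, was higher as deposited but at -0.48 and -0.60 under the marker scalings, with a mean of 46.9 ± 0.41 FPKM in PBS libraries and 66.8 ± 1.64 FPKM in cisplatin libraries (SD over 3 libraries each), a log2 fold change of 0.50 (SE 0.033, limma adjusted p = 1.36e-05). Acss2, which makes it from acetate, measured 3.62, 3.47 and 3.94 FPKM with PBS and 1.37, 1.40 and 1.501 FPKM with cisplatin. Its log2 fold change was -0.95 (SE 0.073, limma adjusted p = 2.99e-05), just short of the threshold, and it passed with a pseudocount of 0.1 (-1.31), TPM rescaling (-1.21), voom (-1.28) and under the marker scalings (-1.63 and -1.71). Acss2 spans several other genes, among them Gss and Ggt7 on the opposite strand.

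Me1 changed more than any other of the 33 genes. It encodes the cytosolic malic enzyme, which yields NADPH (ENSMUSG00000032418, chromosome 9, 86581371 to 86695953). It measured 174, 183 and 177 FPKM with PBS and 26.8, 26.3 and 27.2 FPKM with cisplatin. PBS libraries thus held 6.66-fold more, and the SD of the cisplatin libraries was 0.43 FPKM. The log2 fold change was -2.69 (SE 0.034, limma adjusted p = 3.21e-08). Its promoter holds the antioxidant response core found in 6 of the 26 genes, both higher and lower ones, shown here in capitals with its flanks on the - strand.
Me1 (chr9:86695902-86695930): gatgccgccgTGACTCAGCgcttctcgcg

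Scd2 and Scd1, neighbouring genes for stearoyl-CoA desaturases that introduce the first double bond, fell together. Scd2 (ENSMUSG00000025203, chromosome 19, 44293676 to 44306864) was the most abundant of the 33 genes, at 360, 377 and 374 FPKM with PBS and 150, 144 and 145 FPKM with cisplatin (log2 fold change -1.33, SE 0.033, limma adjusted p = 1.88e-07). Scd1 (ENSMUSG00000037071, chromosome 19, 44394451 to 44407709) measured 116, 121 and 122 FPKM with PBS and 57.2, 60.0 and 57.7 FPKM with cisplatin. In both genes all cisplatin libraries were below all PBS libraries. The log2 fold change of Scd1 was -1.02 (SE 0.036, limma adjusted p = 7.22e-07), and -0.95 under voom, which ended the call, as did the test against the fold threshold itself. The ratio of Scd1 to Scd2 went from 0.32 ± 0.0021 to 0.40 ± 0.017 (SD, n = 3 each, log2 difference 0.30, exact two-sided permutation test, p = 0.1). The genes are close relatives and may share reads.

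Fads1 and Fads2 encode the desaturases of polyunsaturated fatty acids and also lie near each other. Fads1 (ENSMUSG00000010663, chromosome 19, 10182888 to 10196870) measured 57.4, 58.5 and 56.5 FPKM with PBS and 19.5, 19.2 and 17.3 FPKM with cisplatin (log2 fold change -1.57, SE 0.051, limma adjusted p = 5.31e-07). Fads2 measured 49.8, 46.0 and 48.0 FPKM with PBS and 32.6, 34.3 and 28.7 FPKM with cisplatin. Its log2 fold change of -0.58 (SE 0.069, limma adjusted p = 0.000277) did not reach the threshold as deposited, and did under the marker scalings (-1.55 and -1.67). With PBS Fads1 was the more abundant of the pair in every library, and with cisplatin Fads2 was.

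**Figure D3:**
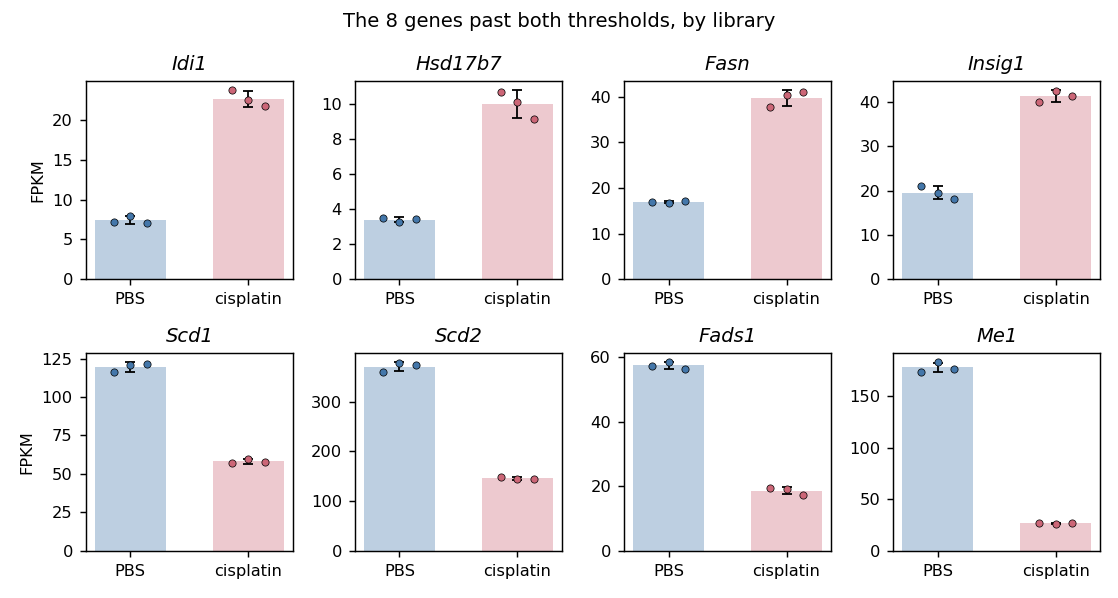
FPKM of the 8 genes past both thresholds in each library. Bars are means, error bars the SD of 3 libraries and points the libraries. Idi1, Hsd17b7, Fasn and Insig1 were higher and Scd1, Scd2, Fads1 and Me1 lower with cisplatin, with no overlap in any of the 8, but none of the 4 higher genes was called under the marker scalings, where Insig1 was at 0.084 and -0.035 (log2).

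Summed over the sterol branch, the 18 genes came to between 197 and 202 FPKM in PBS libraries and between 291 and 297 FPKM in cisplatin libraries. The 10 genes of the fatty acid branch summed to between 837 and 865 FPKM with PBS and between 400.4 and 409 FPKM with cisplatin. Without Scd2, which held the largest share, the fatty acid sum was 483 ± 5.61 FPKM with PBS and 259 ± 5.38 FPKM with cisplatin (SD, n = 3 each). The 4 desaturases alone went from 595 ± 10.6 to 255 ± 5.502 FPKM (SD, n = 3 each).

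Transcripts of the cell types that could be present moved with these groups. The 11 markers of ID8 or mesothelial cells summed to between 1077 and 1173 FPKM with PBS and between 195 and 210 FPKM with cisplatin. All 8 that were tested were lower, against 35.1% of all tested genes. Krt7, Igfbp5 and Epcam stayed below 1 FPKM in every library. Krt19, a keratin of ID8 cells, measured 603, 554 and 605 FPKM with PBS and 46.8, 54.0 and 52.5 FPKM with cisplatin. It was the highest of the 11 with PBS and fell most of the 8 (log2 fold change -3.50), while Msln fell least (-0.70). The 9 macrophage markers summed to between 1638 and 1649 FPKM with PBS and between 4191 and 4346 FPKM with cisplatin. Lyz2 held the largest share, at a mean of 1161 FPKM with PBS and 3459 FPKM with cisplatin. The 8 that passed the filter in both groups were higher, against 32.9% of all tested genes. Their log2 fold changes ranged from 0.20 (Cd68) to 1.57 (Lyz2), with Adgre1 at 0.87 and Csf1r at 0.92. Mertk, the remaining one, passed the filter through the cisplatin group alone. In bulk RNA, fewer cells of a type and less RNA per cell cannot be told apart, and which cells the 33 transcripts came from was not tested.

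Sex-linked transcripts moved in the same libraries. Xist fell by 2.31 on the log2 scale, while the log2 fold changes of genes on the Y chromosome were 1.15 for Ddx3y, 0.68 for Eif2s3y, 0.73 for Kdm5d and 0.55 for Uty. Granulocyte and progenitor markers (6 of 7) and lymphocyte markers (3 of 4 tested) were also higher, against 32.9% of all tested genes. Both tested fibroblast markers were lower, against 35.1% of all tested genes. In the order named, the sums of these lists were 4728 to 4892 against 8731 to 8981 FPKM, 109 to 117 against 261 to 266 FPKM, and 55.5 to 59.6 against 17.4 to 19.3 FPKM, PBS first. The 4 markers of adipocytes and hepatocytes, cell types of high lipid synthesis, stayed below 1 FPKM in every library.

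**Figure D4:**
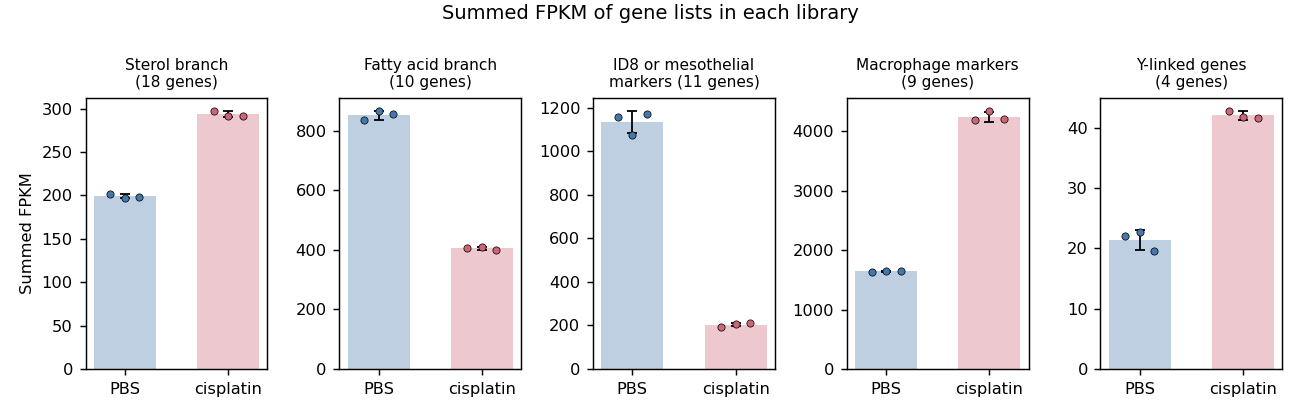
Summed FPKM of the sterol branch, the fatty acid branch, ID8 or mesothelial markers, macrophage markers and Y-linked genes. Bars are means, error bars the SD of 3 libraries and points the libraries. The sterol sum rises and the fatty acid sum falls as deposited, while ID8 markers fall from over 1077 to at most 210 FPKM. The sterol median, however, turns negative when libraries are scaled to the macrophage or Y-linked genes shown. Krt19 held the largest share of the ID8 sum with PBS, and Lyz2 of the macrophage sum in both groups.

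Since these markers differed, the libraries were also scaled to the Y-linked genes and to the macrophage markers. The median over all tested genes became -0.83 with the first and -0.94 with the second. The sterol median was then -0.36 and -0.45, and 3 of the 18 genes (Idi1, Hsd17b7 and Fdps) lay above 0 in either case. Relative to the median of all genes, the sterol branch was 0.50 higher as deposited, 0.47 higher with Y-linked scaling and 0.48 higher with macrophage scaling. In those 3 settings 17, 16 and 16 of its 18 genes lay above the median of all genes. Without Fdps and Tm7sf2 the offsets were 0.50, 0.44 and 0.43, with 15, 14 and 14 of 16 genes above that median. Each marker scaling divides a library by the same factor for all genes, which shifts their fold changes nearly alike. These offsets and counts could therefore hardly have differed, and are no further test. The fatty acid median was -0.76 as deposited, and -1.59 and -1.69 under the marker scalings. Both reference lists were higher with cisplatin, so scaling to them moved fold changes downward. A negative median could not turn positive this way, and no scaling to a list that was lower with cisplatin was made.

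**Figure D5:**
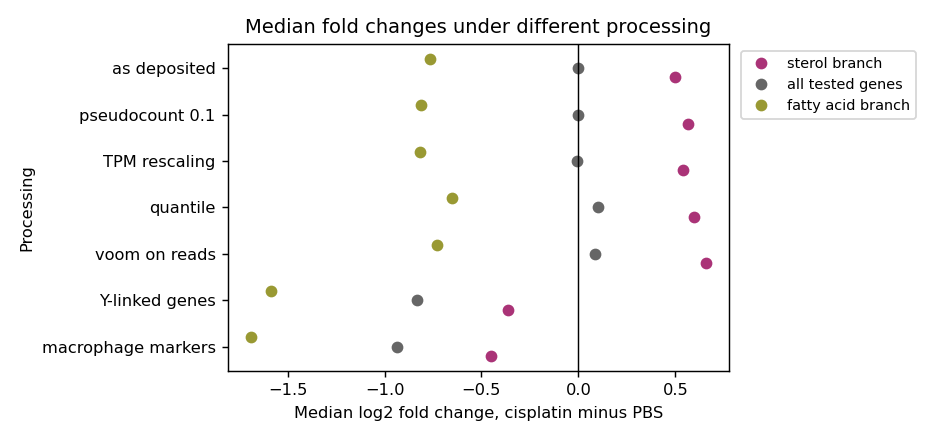
Median log2 fold change (cisplatin minus PBS) of the sterol branch, of all tested genes and of the fatty acid branch under 7 ways of processing. The sterol median lies above that of all genes in each, but below 0 when libraries are scaled to Y-linked genes (-0.36) or macrophage markers (-0.45). Marker scaling shifts all genes nearly alike, so the distance from the median of all genes could hardly change there.

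A pair of neighbouring gene lists set these changes in context. Of 21 further genes of lipid synthesis and SREBP processing, 19 were tested, with 0 upregulated and 2 downregulated, and 6 higher and 13 lower at the adjusted p, as at an unadjusted p under 0.05. Over all tested genes 4.67% were upregulated and 11.3% downregulated, and 32.9% were higher and 35.1% lower. Acacb, 1 of the 13, passed the filter through the PBS group alone, and without it 12 of 18 were lower. Voom on the reads called 2 upregulated. The median log2 fold change was -0.32. Insig2, the relative of Insig1, measured 60.3, 65.1 and 60.7 FPKM with PBS and 12.5, 11.5 and 11.8 FPKM with cisplatin (log2 fold change -2.29, SE 0.047, limma adjusted p = 1.03e-07). The INSIG genes thus moved in opposite directions as deposited, Insig1 upward and Insig2 downward, and under macrophage scaling both were negative (-0.035 and -3.35). Acsl4, which activates arachidonic acid, averaged 91.6 ± 3.19 FPKM with PBS and 39.3 ± 1.93 FPKM with cisplatin (SD over 3 libraries each), and its log2 fold change was -1.20 (SE 0.047, limma adjusted p = 1.18e-06).

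Elovl1, an elongase of very long chains chosen after its values were seen, was just short of the threshold at 0.96. Thrsp, a lipogenic gene also chosen afterwards, was not tested, and had 29, 21 and 26 reads in the PBS libraries and 1, 1 and 0 in the cisplatin libraries. Of 15 genes of sterol sensing, storage, efflux and oxidation, 13 were tested and 0 were called by limma. At the adjusted p 4 were higher and 5 lower, at an unadjusted p under 0.05 4 and 6, and voom on the reads called 1 upregulated, where 32.9% of all tested genes were higher and 35.1% lower at the adjusted p. The median was -0.060. Abcg1, a sterol exporter controlled by LXR, had a log2 fold change of 0.38 and Npc2, which binds cholesterol in lysosomes, one of -0.86, both chosen after their values were seen.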

How the data were processed

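RNA of 6 libraries of poly-T selected RNA (3 per group) had been sequenced by the authors. The deposited FPKM values were made by the authors per gene and library. The labels' processing notes name fastp, HISAT2 2.0.5, featureCounts 1.5.0-p3 and mm10, whereas the study's methods name LifeScope. Strand use is not stated. Of the 33 genes, 28 had the same coordinates in GENCODE release M21 and 5 differed at their ends. The deposited gene length, an unscaled number of bases, served to recover reads: 100% of values under 200 reads came out whole within 0.02.

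Groups came from the treatment labels. The study's methods call the replicates biological, but no source used here says whether they were separate cultures or animals, so p-values may measure technical spread. log2(FPKM + 1) was fitted in limma 3.58.1 (R 4.3.3) with the group as the only term and a trend, in genes with at least 1 FPKM in at least 3 libraries. The script was tested on simulated data, with 2 false calls. It recovered 9 of 46 genes changed 2-fold, 41 of 47 changed 3-fold and 47 of 48 changed 4-fold. Genes near the fold threshold could thus go uncalled. The 33 genes and the lists were chosen with earlier results of these data known. All 33 are named, with every called gene of the neighbouring lists. Lists were described by counts and medians, with no test. Alternatives were another pseudocount, other filters, scalings and variance models, voom on reads, a replicate block, leaving out libraries and other call rules. Same-numbered libraries did not deviate together (correlation of deviations -0.10, -0.086 and -0.024). Plots were drawn with matplotlib 3.10.9.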

Additional observations from a re-analysis of the deposited data

How the results depend on the processing

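Scaling to Y-linked genes or to macrophage markers changed most directions (values in that order). Over all tested genes, 628 upregulated and 1514 downregulated genes became 85 and 74 up and 5181 and 6124 down, and over the 33 genes 4 and 4 became 0 and 0 up and 8 and 9 down. The medians became -0.51 and -0.62 (33 genes), -0.36 and -0.45 (sterol) and -1.59 and -1.69 (fatty acid). Downregulated genes became 13 and 13 in the further synthesis list and 6 and 8 in the sterol handling list. Log2 fold changes that turned negative under both were Hmgcs1 -0.83 and -0.95, Mvk -0.49 and -0.59, Pmvk -0.15 and -0.26, Mvd -0.29 and -0.41, Fdft1 -0.47 and -0.58, Sqle -0.73 and -0.85, Lss -0.29 and -0.39, Cyp51 -0.066 and -0.18, Tm7sf2 -0.41 and -0.48, Msmo1 -0.32 and -0.43, Nsdhl -0.51 and -0.62, Sc5d -0.54 and -0.66, Dhcr7 -0.56 and -0.67, Acat2 -0.32 and -0.43, Acaca -0.44 and -0.54, Acly -0.48 and -0.60, Elovl6 -0.72 and -0.83, Scap -0.61 and -0.72, Stard4 -0.62 and -0.74, Elovl1 -0.0071 and -0.13, and Abcg1 -0.59 and -0.70. Insig1 turned under the macrophage markers alone (-0.035). Srebf2 was -0.99 and -1.11 under the marker scalings, turned positive under quantile normalisation (0.048), voom (0.077) and without cisplatin replicate 1 (0.020), and ranged from -0.033 to 0.020 over the fits without 1 library. Under the marker scalings Ebp, Fads2, Acss2 and Srebf1 became downregulated in both and Srebf2 with macrophage markers. The cause was not tested. The adjusted p alone called 4424 up and 4721 down over all genes, 23 and 8 of the 33, 6 and 13 in further synthesis and 4 and 5 in sterol handling. Voom gave 1227 up over all genes, 6 up of the 33, 2 up in further synthesis, 1 up in sterol handling, and medians of 0.51 (33 genes) and 0.66 (sterol). A pseudocount of 0.1 gave 973 up, 4 down in further synthesis, and medians of 0.41 and 0.56. Quantile normalisation gave 1 up in further synthesis and medians of 0.45, 0.60 and -0.65 (fatty acid). TPM rescaling gave 0.54 (sterol) and -0.82 (fatty acid), and a filter at 5 FPKM -0.58 (fatty acid). A test against the fold threshold itself gave 240 up and 982 down, and 3 up and 3 down of the 33, without Scd1 and Insig1. Leaving out 1 library gave 622 to 671 up and 1513 to 1531 down, and 3 to 5 up and 4 to 4 down of the 33, with medians of 0.31 to 0.40, 0.47 to 0.52 and -0.79 to -0.74. With replicate numbers added as a block, the fit gave 625 up and 1515 down, with 4 and 4 of the 33. The numbers are not stated to pair the libraries, and 0 of 3 cisplatin libraries correlated best with its own number. The block also ended the adjusted p of Hmgcs1 (0.0503) and Elovl6 (0.054). Fdps rested on 30 to 161 reads per library, and the part of depth in its value was not tested. Median-of-ratios scaling is void as an alternative, since its factor was equal in all 6 libraries.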
